A study of Mus with 3 samples.

Results

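CD4 T cells from MC38 tumors were compared by the size of their T cell receptor (TCR) clonotype. A CD4 T cell was a barcode with 500 or more gene UMIs, a clonotype in the deposited TCR table, 1 or more Cd4 UMIs and no Cd8a or Cd8b1 UMI. Its genotype was that of its top hashtag, which needed 10 or more UMIs and at least 3 times those of the next hashtag. Of 5600 barcodes with 500 or more UMIs, 3702 had a clonotype, 3495 of these had a genotype, and 681 were CD4 T cells. A clonotype was repeated if 2 or more barcodes of its genotype carried it, whatever their Cd4 or Cd8 UMIs, and single if 1 did. This gave 326 CD4 T cells in 124 repeated clonotypes and 355 in single clonotypes.

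MC38 is a mouse colon adenocarcinoma line, and the tumors were taken on day 16. The WT tumor is the control, and which control strain of the study it came from was not stated. Rara encodes the retinoic acid receptor RARα. RARα-KO mice (dLck-Cre × Rara L/L) carry a Cre under the distal Lck promoter, which acts in T cells, and RARα-TG mice (CD2-Rara) express Rara under the CD2 promoter in lymphocytes. The labels give 30000 sorted CD45.2+ CD3+ T cells for each genotype, the 3 genotypes were told apart by hashtag antibodies, and all cells went into 1 pooled library. Each genotype was therefore 1 sample, with no replicate and no test between genotypes, and how many mice it came from was not given in the sources used. The labels also name spleen and naive CD8 T cells activated with antibodies and IL-2, which does not match the tumor protocol in the same labels. Intervals below are 95% and cover counting error only. Those over cells count the cells of 1 clonotype as independent and can be too narrow. The matrix held 46394322 gene UMIs in 730308 barcodes, and hashtag and clonotype disagreed in 11 of 1811 cells of 108 clonotypes with 5 or more cells (0.607%, 0.304% to 1.08%).

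A T cell draws its receptor by joining gene segments at random, and its daughters keep it, so cells that share both chains of a receptor are taken to descend from 1 ancestor. CD4 T cells read antigen on MHC class II molecules and help other cells, kill, or restrain immunity. The last role belongs to regulatory T cells (Treg), which are defined by the transcription factor Foxp3. They arise in the thymus or from conventional CD4 T cells in tissue, so a clonotype can hold cells with and without Foxp3.

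The CDR3 is the stretch of each chain that touches the peptide. The sequences of the largest clonotypes are shown first, because the results turn on them. Clonotypes 24, 27 and 29 of the RARα-TG tumor held cells with and without Foxp3 UMIs. Clonotypes 41 (WT) and 37 (RARα-KO), with 14 CD4 T cells each, had none with a Foxp3 UMI. The CDR3 is written in bases as the deposited contig table gives it. Capitals, where present, mark bases that differ from clonotype 27. Clonotype 27 had a second alpha chain (TRAV7D-2, TRAJ23), which is not printed, and the alpha chain nearer to those of clonotypes 62 and 75 is shown.
Clonotype 24 (RARα-TG, TRBV20, TRBJ2-4), beta: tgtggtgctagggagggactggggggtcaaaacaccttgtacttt
Clonotype 24 (RARα-TG, TRAV6N-7, TRAJ34), alpha: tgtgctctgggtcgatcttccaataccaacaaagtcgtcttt
Clonotype 29 (RARα-TG, TRBV20, TRBJ1-3), beta: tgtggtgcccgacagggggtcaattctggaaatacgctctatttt
Clonotype 29 (RARα-TG, TRAV6N-7, TRAJ32), alpha: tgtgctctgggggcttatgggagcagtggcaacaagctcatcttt
Clonotype 41 (WT, TRBV12-2, TRBJ2-3), beta: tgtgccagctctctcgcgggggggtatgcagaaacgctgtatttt
Clonotype 41 (WT, TRAV19, TRAJ57), alpha: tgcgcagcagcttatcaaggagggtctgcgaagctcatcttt
Clonotype 37 (RARα-KO, TRBV10, TRBJ2-1), beta: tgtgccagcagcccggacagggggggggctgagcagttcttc
Clonotype 37 (RARα-KO, TRAV14N-3, TRAJ22), alpha: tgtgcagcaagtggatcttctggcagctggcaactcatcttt
Clonotype 27 (RARα-TG, TRBV5, TRBJ1-3), beta: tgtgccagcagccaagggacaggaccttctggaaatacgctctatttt
Clonotype 62 (WT, TRBV5, TRBJ1-3), beta: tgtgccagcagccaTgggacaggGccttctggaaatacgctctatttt
Clonotype 75 (RARα-KO, TRBV5, TRBJ1-3), beta: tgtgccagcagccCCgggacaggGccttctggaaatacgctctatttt
Clonotype 27 (RARα-TG, TRAV5D-4, TRAJ37), alpha: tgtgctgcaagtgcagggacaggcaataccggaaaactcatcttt
Clonotype 62 (WT, TRAV10D, TRAJ37), alpha: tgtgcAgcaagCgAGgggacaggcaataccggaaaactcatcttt
Clonotype 75 (RARα-KO, TRAV5-4, TRAJ37), alpha: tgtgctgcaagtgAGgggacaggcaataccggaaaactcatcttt

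Repeated clonotypes held 42.6% of the CD4 T cells in the WT tumor (83 of 195, Clopper-Pearson interval 35.5% to 49.8%), 58.5% in the RARα-KO tumor (141 of 241, 52.0% to 64.8%) and 41.6% in the RARα-TG tumor (102 of 245, 35.4% to 48.1%). The share was highest in the RARα-KO tumor, and its interval does not overlap the others. Clonotype size was counted among 1290 WT, 1529 RARα-KO and 676 RARα-TG cells with a receptor, and a larger sample finds more repeats. Drawn down to 676 cells per tumor, the shares were 32.4%, 48.3% and 41.6%, so that the WT tumor then had the lowest share. The RARα-TG tumor had 168 cells with CD8 UMIs beside its 245 CD4 T cells, against 881 in WT and 1158 in RARα-KO.

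The repeated cells spread differently over clonotype sizes. At the threshold itself, clonotypes of 2 barcodes held 33 WT, 27 RARα-KO and 35 RARα-TG cells, beside the 112, 100 and 143 single cells. Clonotypes of 3 to 9 barcodes held 31 WT, 80 RARα-KO and 32 RARα-TG cells. Clonotypes of 10 or more barcodes held 19, 34 and 35 cells, and the largest had 14, 16 and 19 barcodes. The CD4 T cells made up 147, 146 and 186 clonotypes, of which 35, 46 and 43 were repeated. Of 475 CD4 clonotypes, 4 had CD4 T cells in more than 1 genotype. The median depth of repeated cells was 4606 (WT), 5100 (RARα-KO) and 4320 UMIs (RARα-TG), and that of single cells 3944, 4183 and 3917 UMIs, so repeated cells were deeper in each tumor.

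The gate was checked against markers. Each of the 681 cells had a UMI of at least 1 of 6 T cell markers (Cd3d, Cd3e, Cd3g, Trac, Cd2, Cd5), and markers of NK cells and B cells summed to at most 11.5 and 8.81 UMIs per 1000000 gene UMIs (CPM) in any class. The 4 dendritic markers reached 51.1 CPM in WT single cells, and the 6 MC38 and stromal markers 98.6 CPM in WT single and 97.9 CPM in RARα-TG repeated cells. Ncr1 was at 0 in each class. The 8 myeloid markers summed to 29.9, 92.1 and 22.6 CPM in repeated cells of the WT, RARα-KO and RARα-TG tumors and to 294, 197 and 20.8 CPM in single cells. Csf1r was at 0 in 4 of these 6 sums, and the part of myeloid, dendritic and stromal RNA in the results below was not tested. Rara itself was at 78.2 CPM in repeated and 95.1 CPM in single WT cells, at 55.2 and 91.8 CPM in RARα-KO cells, and at 303 and 293 CPM in RARα-TG cells. UMIs do not show whether the deleted part of Rara was present, so the RARα-KO level does not check that label. Rara was highest in the RARα-TG tumor and did not pass the test between repeated and single cells (log2 fold change -0.26 ± 0.18 SE, edgeR adjusted p = 0.707).

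Counted over cells, Foxp3 did not separate repeated from single cells in the same direction in the 3 tumors. In WT, 50.6% of repeated cells had a Foxp3 UMI (42 of 83, 39.4% to 61.8%) and 58.0% of single cells (65 of 112, 48.3% to 67.3%). In RARα-KO the shares were 31.2% (44 of 141, 23.7% to 39.5%) and 40.0% (40 of 100, 30.3% to 50.3%). In RARα-TG they were 69.6% (71 of 102, 59.7% to 78.3%) and 50.3% (72 of 143, 41.9% to 58.8%).

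The difference, repeated minus single, was -7.43 percentage points for WT (Newcombe interval -21.1 to 6.56), -8.79 points for RARα-KO (-20.9 to 3.33) and 19.3 points for RARα-TG (6.79 to 30.7). Only the RARα-TG interval leaves out 0. It counts cells as independent, and clonotype 24 alone held 14 of the 71 Foxp3-positive repeated cells of that tumor. An exact permutation test over 3 tumors cannot give a p below 0.25, so none was run. Repeated cells were deeper, and after each cell was thinned to 1000 UMIs the differences were -3.58 (-15.5 to 9.05), -8.11 (-18.5 to 1.77) and 3.67 points (-7.16 to 14.9). The RARα-TG difference then included 0. It was 5.75 points where only CD4 T cells counted toward size, and 5.23 points where Foxp3-positive meant 2 or more UMIs.

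By level, Foxp3 was lower in the repeated cells of WT and RARα-KO and higher in those of RARα-TG. Foxp3 was at 315 CPM in repeated and 379 CPM in single cells of WT, at 188 and 309 CPM in RARα-KO and at 356 (Poisson interval 307 to 410) and 300.1 CPM (260.2 to 344.5) in RARα-TG. Foxp3 did not pass the test over the 3 tumors (log2 fold change -0.24 ± 0.17, edgeR adjusted p = 0.685). As background, cells with a Cd8a or Cd8b1 UMI and no Cd4 UMI had a Foxp3 UMI in 1.39% (WT, 864 cells), 1.14% (RARα-KO, 1137 cells) and 12.3% (RARα-TG, 146 cells) of cells, at median depths of 5544, 5200 and 4181 UMIs. Of those with a Cd8a UMI, 0.631%, 1.15% and 1.98% had one, at 5774, 5454 and 4709 UMIs. Both sets of shares lie below those of the CD4 T cells.

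**Figure D1:**
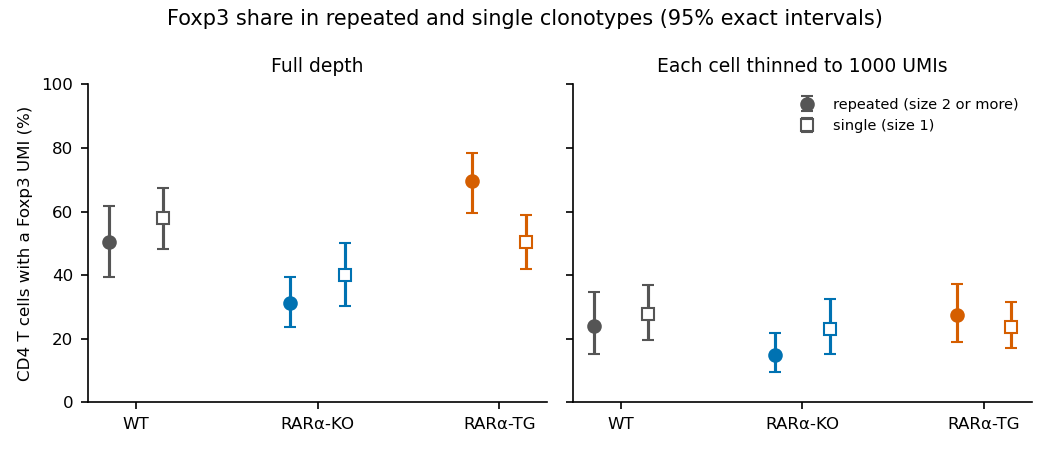
Share of CD4 T cells with a Foxp3 UMI (y axis, percent) in repeated (filled) and single (open) clonotypes of each tumor, at full depth (left) and thinned to 1000 UMIs a cell (right), with 95% Clopper-Pearson intervals. At full depth the RARα-TG repeated cells, at 69.6%, lie above the single cells at 50.3%, and after thinning the intervals of every pair overlap.

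Seen from the other side, repeated clonotypes held 39.3% of the Foxp3-positive WT cells (42 of 107, 30.0% to 49.2%), 52.4% of the RARα-KO ones (44 of 84, 41.2% to 63.4%) and 49.7% of the RARα-TG ones (71 of 143, 41.2% to 58.1%). Among Foxp3-zero cells the shares were 46.6% (41 of 88, 35.9% to 57.5%), 61.8% (97 of 157, 53.7% to 69.4%) and 30.4% (31 of 102, 21.7% to 40.3%). In the RARα-KO tumor most Foxp3-zero cells had a partner of the same clonotype, and the share was lowest in the RARα-TG tumor, where its interval overlaps that of WT. With each clonotype given equal weight, the mean Foxp3 share of repeated clonotypes was 62.9% for WT, 44.6% for RARα-KO and 79.2% for RARα-TG. Each was above the single cells of its tumor, by 4.82 (WT), 4.57 (RARα-KO) and 28.9 percentage points (RARα-TG), so the direction in WT and RARα-KO turned with the weighting.

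Cells of 1 clonotype mostly matched in Foxp3 in the WT and RARα-KO tumors. WT had 23 clonotypes with 2 or more CD4 T cells (71 cells), of which 14 had a Foxp3 UMI in every cell, 9 in none and 0 were mixed, which allows a mixed share of up to 13.0% by a limit of 3 counts and up to 14.8% by the Clopper-Pearson bound. RARα-KO had 32 (127 cells), of which 12 were all-positive, 16 all-zero and 4 mixed (12.5%, 3.51% to 29.0%). RARα-TG had 23 (82 cells), of which 11 were all-positive, 7 all-zero and 5 mixed (21.7%, 7.46% to 43.7%).

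The mixed clonotypes were small in RARα-KO. In RARα-TG clonotypes 24, 27 and 29 were larger, while mixed clonotypes 101 and 194 had 2 CD4 T cells each. Mixed clonotypes held 11 of 127 cells in RARα-KO (8.66%, 4.403% to 14.97%) and 39 of 82 in RARα-TG (47.6%, 36.4% to 58.9%). A random pair of cells of the same clonotype differed in Foxp3 in 0% of 157 pairs in WT, 2.18% of 321 pairs in RARα-KO and 34.0% of 256 pairs in RARα-TG. Pairs of cells from different clonotypes differed in 54.0%, 43.9% and 48.7%. Pairs of a large clonotype share cells and are not independent, and clonotypes 24, 27 and 29 supplied most of the RARα-TG pairs.

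A Foxp3-zero cell can also be a cell whose Foxp3 RNA was not captured. After thinning to 1000 UMIs a cell, 10 clonotypes were mixed in each tumor (43.5% of the 23 WT, 31.3% of the 32 RARα-KO and 43.5% of the 23 RARα-TG clonotypes), and pairs within a clonotype differed in 11.5%, 4.98% and 37.9%. Thinned pairs from different clonotypes differed in 38.7%, 25.3% and 39.9%, so that the within and between shares were close in RARα-TG. At full depth the Foxp3-zero cells of mixed clonotypes had a median of 4190 UMIs in RARα-TG, beside 4110 in their Foxp3-positive partners. In RARα-KO the medians were 3844 and 4918 UMIs. Foxp3-positive cells of mixed RARα-TG clonotypes had 387 CPM of Foxp3 (292 to 504), beneath the 626 CPM (496 to 779) of all-positive clonotypes in that tumor. In RARα-KO the values were 718 CPM (491 to 1014) and 575 CPM (472 to 694). How many Foxp3-zero cells were missed captures was not tested.

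**Figure D2:**
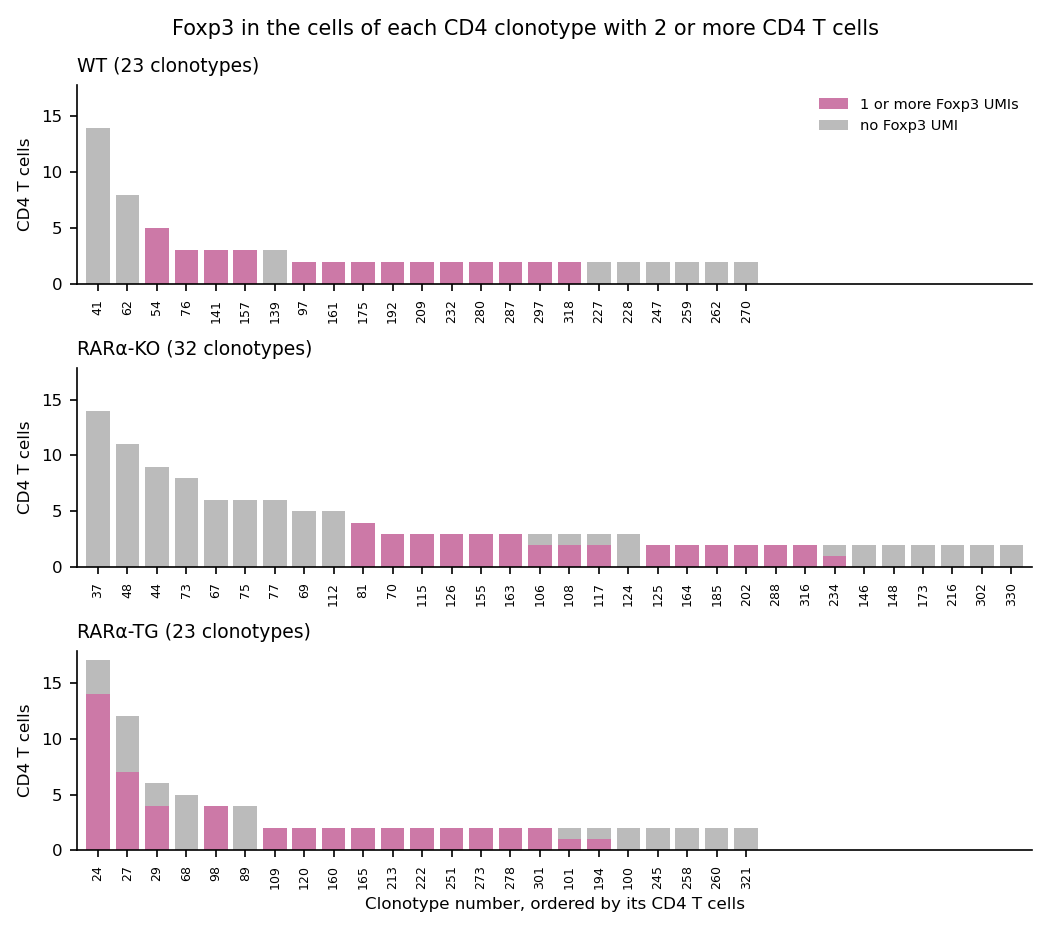
Each bar is 1 clonotype with 2 or more CD4 T cells in its tumor (x axis, clonotype number), and its height is the number of CD4 T cells, divided into cells with 1 or more Foxp3 UMIs and cells with none. No WT clonotype holds both kinds, while clonotypes 24, 27 and 29 of the RARα-TG tumor do.

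The 3 largest mixed clonotypes were all in the RARα-TG tumor. Clonotype 24 had 19 barcodes, 17 of them CD4 T cells and 14 of these Foxp3-positive, with 0 to 7 Foxp3 UMIs a cell. Clonotype 27 had 18 barcodes, 12 CD4 T cells and 7 Foxp3-positive ones, with 0 to 5 UMIs. Clonotype 29 had 18 barcodes, of which 6 were CD4 T cells, 4 were Foxp3-positive and 5 carried CD8 UMIs, and no doublet caller was run. Without clonotypes that had a barcode with CD8 UMIs, 3 of 18 RARα-TG, 3 of 28 RARα-KO and 0 of 22 WT clonotypes were mixed. With the deepest 5% of cells left out, 4 of 21, 3 of 28 and 0 of 22 were.

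In RARα-KO, all 9 clonotypes with 5 or more CD4 T cells were Foxp3-zero in every cell, from clonotype 37 with 14 cells and 48 with 11 to 69 and 112 with 5 each. The mixed RARα-KO clonotypes 106, 108 and 117 had 3 CD4 T cells, 2 of them Foxp3-positive, and 234 had 2 cells. In WT, clonotypes 41 (14 cells) and 62 (8 cells) were all-zero, and clonotype 54 was all-positive in its 5 cells. The large clonotypes thus belonged to Foxp3-zero cells in WT and RARα-KO, apart from clonotype 54, and mostly to mixed ones in RARα-TG, where the exception was all-zero clonotype 68 with 5 cells.

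Other genes were compared in the same way, by whether a cell had a UMI of the gene. Ikzf2, which encodes the Treg factor Helios, differed in 11.5% of pairs within and 53.4% between clonotypes in WT, in 18.1% and 48.6% in RARα-KO and in 46.5% and 49.4% in RARα-TG. The gap between the figures was narrowest in RARα-TG, as for Foxp3. Klrg1, a receptor of effector Treg and other differentiated lymphocytes, differed in 10.2% and 51.6%, in 28.0% and 42.2% and in 19.1% and 44.9%. Gzmb, the protease granzyme B, differed in 35.0% and 49.4%, 35.5% and 50.9%, and 16.8% and 40.4%. Ctla4, an inhibitory receptor abundant in Treg, differed in 40.1% of pairs within and 35.1% between clonotypes in WT, so it did not follow the clonotype there, in 23.4% and 30.2% in RARα-KO, and in 12.9% and 30.0% in RARα-TG. These shares depend on depth and on the level of the gene, and they carry no test.

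The large clonotypes differed from each other in effector genes. In the RARα-TG tumor, clonotype 24 had 7106 CPM of Gzmb in 17 of 17 cells, 1198 CPM of Klrg1 and 2669 CPM of Ctla4. Among clonotypes with 5 or more CD4 T cells, clonotype 27 led in Areg, a growth factor of the EGF family that Treg release in tissue repair, with 4007 CPM in 10 of 12 cells. Clonotype 29 had the most Gzmb of clonotypes of that size, 12576 CPM, and 1914 CPM of Il2ra, the alpha chain of the IL-2 receptor. Klrd1, which pairs with NKG2 receptors, was at 0 in all 3 of these clonotypes.

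The large Foxp3-zero clonotypes carried helper and cytotoxic genes instead. Clonotype 41 of WT had 2359 CPM of Ifng, the main Th1 cytokine, in 5 of 14 cells, 1089 CPM of Csf2 (GM-CSF) in 4 cells and 980 CPM of Tnfsf11 (RANKL) in 10 cells. Clonotype 62 of WT had 4130 CPM of Gzme, a granzyme, and 3714 CPM of the chemokine Ccl5, but each came from 1 of 8 cells. Clonotype 37 of RARα-KO had 4350 CPM of Ccl5 in 9 of 14 cells, 2886 CPM of Nkg7, a granule protein of killer lymphocytes, in 14 of 14, and 1277 CPM of the inhibitory receptor Lag3 in 14 of 14. Nkg7 reached 5659 CPM in clonotype 75 of the same tumor. Clonotype 54, the all-positive WT clonotype, instead had 774 CPM of Ikzf2 and 1250 CPM of Il2ra in 5 of 5 cells.

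**Figure D3:**
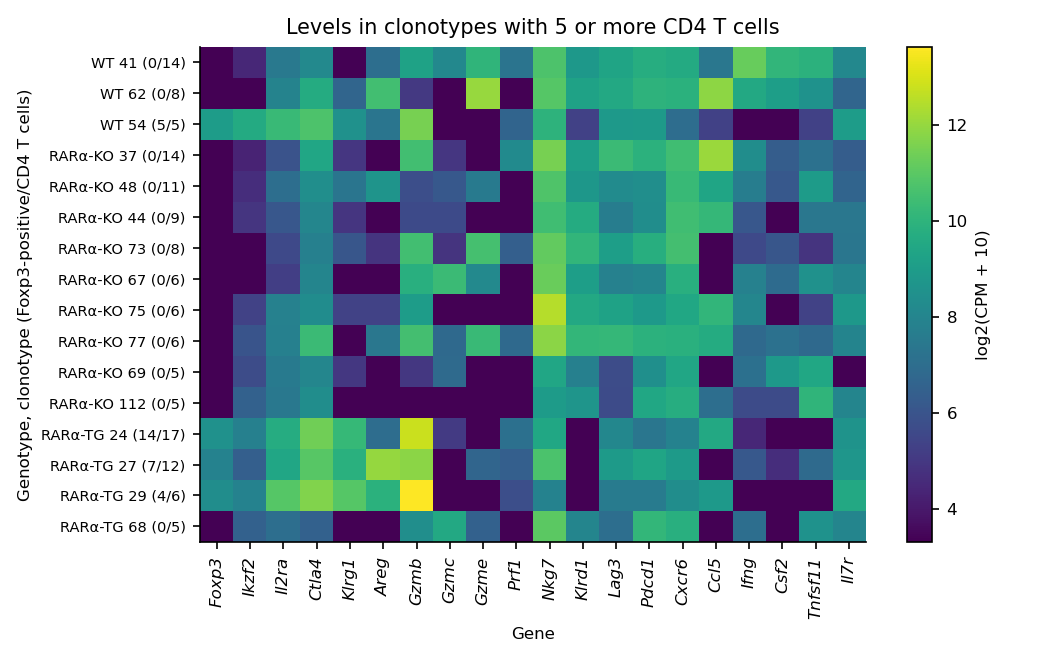
Level of 20 genes (columns), as log2(CPM + 10), in the summed CD4 T cells of each clonotype with 5 or more of them (rows, with Foxp3-positive cells over all CD4 T cells). The Foxp3-zero clonotypes of WT and RARα-KO are bright in Nkg7, Klrd1 and Cxcr6, and RARα-TG clonotypes 24, 27 and 29 in Gzmb, Ctla4 and Klrg1.

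Gene levels of repeated and single cells were then compared over the 3 tumors. UMIs were summed over the repeated and over the single CD4 T cells of each tumor, and the 6 sums were tested with edgeR's quasi-likelihood test with genotype as a block. The 3 tumors were thus the replicates of the contrast, although they differ in genotype. The 6 sums left few residual degrees of freedom, so the spread behind each p came largely from the pool of all genes. Of 6138 genes tested, 73 passed an adjusted p of 0.05 (1.19%), 45 higher (0.733%) and 28 lower (0.456%) in repeated cells. DESeq2 passed 8 higher and 0 lower, with 134 genes of either direction at an unadjusted p under 0.05, and after thinning to 1000 UMIs a cell 11 higher and 2 lower genes passed in edgeR. The size of a clonotype came from the receptor library, and receptor segment genes were not tested. The median log2 fold change over all genes tested was 0.0054.

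In repeated cells 5 of 9 cytotoxic genes and 5 of 17 helper and Th1 genes tested rose in edgeR, and 1 and 2 in DESeq2. Nkg7 was at 1242 CPM in repeated and 426 CPM in single cells of WT, at 1604 and 545 CPM in RARα-KO and at 618 and 299 CPM in RARα-TG (log2 fold change 1.39 ± 0.12, edgeR adjusted p = 1.2e-05). It was higher in the repeated cells of each tumor, and 59, 117 and 51 repeated cells had a UMI, of which 26, 33 and 32 also had a Foxp3 UMI. Lag3 was at 593 and 243 CPM in WT, at 505 and 271 CPM in RARα-KO and at 382 and 187 CPM in RARα-TG (1.07 ± 0.14, edgeR adjusted p = 0.000613). Prf1, the pore-forming protein perforin, was at 55.2 and 22.9, 48.3 and 13.7, and 54.6 and 7.43 CPM (1.88 ± 0.34, edgeR adjusted p = 0.00885). All 3 genes were higher in the repeated cells of each tumor, which the choice of leading genes required of Nkg7 and Lag3. Nkg7 UMIs came from 27 of 35, 40 of 46 and 22 of 43 repeated clonotypes, and no clonotype gave more than 32.9% of them, while clonotype 37 gave 66.7% of the RARα-KO repeated UMIs of Prf1.

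Klrd1 and its partner Klrc1 (NKG2A) rose, with larger ratios in the WT and RARα-KO tumors. Klrd1 was at 230 and 61.6 CPM in WT, at 429 and 141 CPM in RARα-KO and at 22.6 and 14.9 CPM in RARα-TG (1.59 ± 0.21, edgeR adjusted p = 0.000613). Of the repeated cells with a Klrd1 UMI, 1 of 31, 1 of 62 and 1 of 5 also had a Foxp3 UMI, so Klrd1 lay almost wholly outside the Foxp3-positive cells. Klrc1 was at 428 and 93.3, 451 and 107, and 188 and 149 CPM (1.53 ± 0.26, edgeR adjusted p = 0.00614). For scale, cells with CD8 UMIs had 799, 883 and 363 CPM of Klrd1 and 2891, 3580 and 1654 CPM of Nkg7.

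The granzymes Gzme and Gzmc had the largest fold changes among the named genes, and few clonotypes carried them. Gzme was at 805 and 10.6 CPM in WT, 249 and 29.3 CPM in RARα-KO and 15.1 and 4.46 CPM in RARα-TG (4.35 ± 0.42, edgeR adjusted p = 2.9e-05), but clonotype 62 gave 51.1% of the WT repeated UMIs. Gzmc rose by 3.24 ± 0.35 (edgeR adjusted p = 9.5e-05), with 64.3% of the RARα-KO repeated UMIs in clonotype 146 and 85.7% of those in RARα-TG in clonotype 68. Ccl1, a chemokine ligand of CCR8, rose by 2.37 ± 0.39 (edgeR adjusted p = 0.00614), with 92.9% of its WT repeated UMIs in clonotype 228. Gzmb, by contrast, was at 2120 and 1941, 1892 and 2275, and 4322 and 2730 CPM and did not pass (0.18 ± 0.12, edgeR adjusted p = 0.684).

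The receptors Pdcd1 and Cxcr6 rose too. Pdcd1 (PD-1) was at 506 and 204 CPM in WT, 470 and 260 CPM in RARα-KO and 322 and 219.9 CPM in RARα-TG (0.90 ± 0.15, edgeR adjusted p = 0.0071). Cxcr6, a chemokine receptor of tissue T cells, was at 469 and 167, 786 and 232, and 316 and 285 CPM (1.13 ± 0.22, edgeR adjusted p = 0.0128). Its gap was small in RARα-TG, and without WT or without RARα-KO it lost the call (adjusted p = 0.338 and 0.215). Among the other leading genes, Anxa2, a membrane-binding protein, rose by 0.78 ± 0.10, the macrophage growth factor Csf1 by 1.31 ± 0.19, the transcriptional regulator Id2 by 0.97 ± 0.16, the metal-binding protein Mt1 by 0.95 ± 0.15 and the sugar-phosphate transporter Slc37a2 by 1.81 ± 0.26. Of the named genes, Nkg7, Gzmc, Anxa2, Lag3, Slc37a2 and Mt1 kept an adjusted p under 0.05 with any 1 tumor left out.

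Csf2 and Il12rb2, a chain of the IL-12 receptor, passed with little difference in RARα-TG. Csf2 was at 301 and 56.4 CPM in WT, 64.4 and 29.3 CPM in RARα-KO and 33.9 and 34.2 CPM in RARα-TG (1.46 ± 0.32, edgeR adjusted p = 0.0287), and clonotype 41 gave 68.7% of its WT repeated UMIs. Il12rb2 was at 200.1 and 59.9, 221 and 111, and 37.7 and 35.7 CPM (1.06 ± 0.24, edgeR adjusted p = 0.0323). Ifng showed how 1 clonotype can set a level. It was at 554 and 8.81 CPM in WT, at 109 and 141 CPM in RARα-KO and at 15.1 and 199 CPM in RARα-TG, with 80.9% of the WT repeated UMIs in clonotype 41, and did not pass (0.39 ± 0.82, edgeR adjusted p = 0.924).

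Of 14 resting and memory genes tested, 3 fell in repeated cells in edgeR and 0 in DESeq2, where 5 had an unadjusted p under 0.05. Tcf7, the transcription factor TCF1, was at 20.7 and 59.9 CPM in WT, 29.9 and 85.9 CPM in RARα-KO and 11.3 and 71.3 CPM in RARα-TG (-1.80 ± 0.28, edgeR adjusted p = 0.00447). S1pr1, the receptor by which T cells leave tissue, was at 43.7 and 72.2, 16.1 and 115, and 15.1 and 83.2 CPM (-1.99 ± 0.32, edgeR adjusted p = 0.00545). Ccr7, the receptor for entry into lymph nodes, was at 375 and 569, 95.5 and 344, and 360 and 516 CPM (-0.94 ± 0.19, edgeR adjusted p = 0.019). All 3 were lower in the repeated cells of each tumor, which the choice of leading genes required. Lef1 (0.12 ± 0.24), Klf2 (-0.05 ± 0.26) and Il7r (-0.25 ± 0.14) did not pass.

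Interferon-induced genes were among the other leading genes that fell. The genes Cxcl10 (-1.80 ± 0.31), Irf7 (-1.24 ± 0.24) and Ifi27l2a (-0.60 ± 0.11) fell, with Cxcl10 at 34.5 and 75.7 CPM in WT, 31.1 and 93.8 CPM in RARα-KO and 5.65 and 71.3 CPM in RARα-TG. Cells without a clonotype had 771 (WT), 743 (RARα-KO) and 35.5 CPM (RARα-TG) of Cxcl10, and the myeloid markers above were higher in single cells of WT and RARα-KO and near level in RARα-TG. Fcer1g, 1 of those markers, itself passed (-1.97 ± 0.38, edgeR adjusted p = 0.0128) and was at 0 in RARα-TG single cells. Ube2c, which acts in mitosis (-1.70 ± 0.34), the chromatin protein Hmgb2 (-0.66 ± 0.12) and the histone variant H2afz (-0.54 ± 0.10) fell, as did the topoisomerase Top2a (-1.11 ± 0.25, edgeR adjusted p = 0.0323), while Mki67 did not pass (-0.27 ± 0.29). Crlf3 (-0.89 ± 0.16), Trib2 (-1.74 ± 0.33), a pseudokinase, and Dgat2 (-1.76 ± 0.35), an enzyme of triglyceride synthesis, completed the 12.

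**Figure D4:**
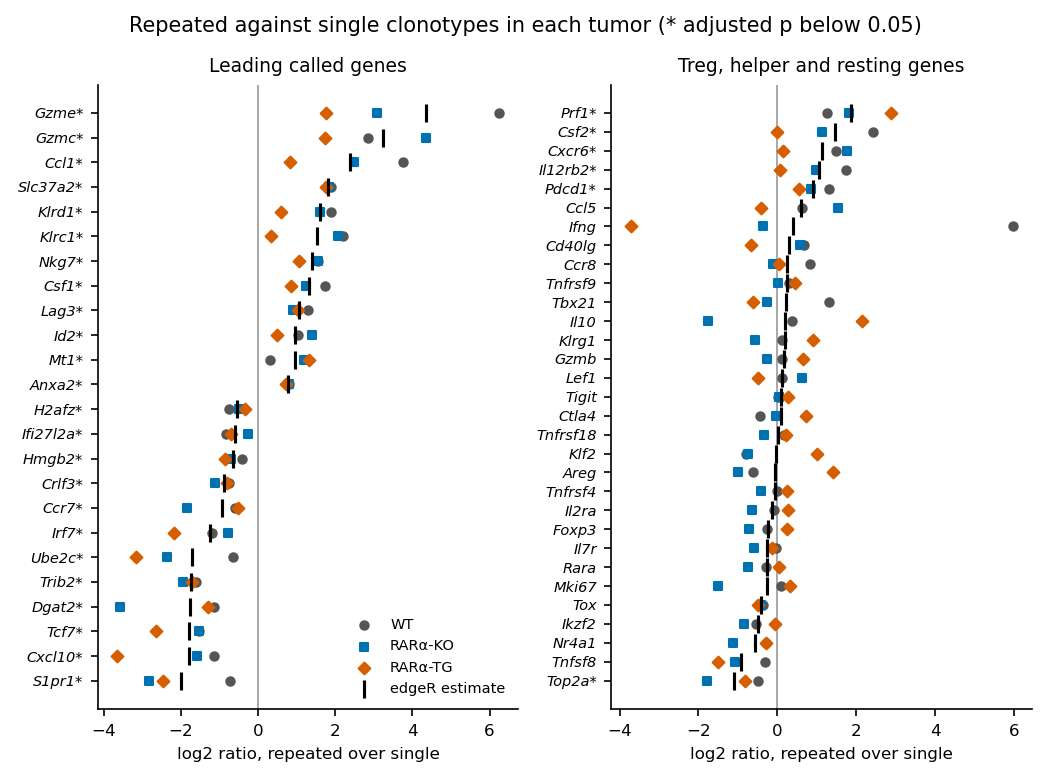
Log2 ratio of CPM in repeated over single CD4 T cells (x axis) in each tumor (symbols) and as estimated by edgeR (bars), for the 12 leading genes in each direction (left) and other named genes (right), where an asterisk marks an adjusted p under 0.05. The leading genes lie on 1 side of 0 in all 3 tumors because they were chosen for it, while Ifng, Il10, Areg and Klf2 spread to both sides.

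No Treg gene passed the test between repeated and single cells. All 24 listed genes were tested in edgeR and 0 passed, with 6 at an unadjusted p under 0.05 (0 and 2 in DESeq2), beside the 1.19% of all genes that passed. Their median log2 fold change was -0.05, with 11 above 0. The gene nearest to the threshold, chosen after its value was seen, was Il1rl1, the IL-33 receptor (-1.53 ± 0.36, edgeR adjusted p = 0.0502). Ikzf2 was at 412 and 599 CPM in WT, 258 and 465 CPM in RARα-KO and 377 and 392 CPM in RARα-TG (-0.49 ± 0.15, edgeR adjusted p = 0.159). Il2ra was at 690 and 726, 383 and 600, and 1047 and 874 CPM (-0.14 ± 0.14, edgeR adjusted p = 0.817), and Ctla4 at 1016 and 1370, 846 and 873, and 2053 and 1242 CPM (0.09 ± 0.15, edgeR adjusted p = 0.906). Tnfrsf4 (OX40, -0.06 ± 0.10), Tnfrsf9 (4-1BB, 0.25 ± 0.09), Tnfrsf18 (GITR, 0.02 ± 0.11), Ccr8 (0.25 ± 0.17) and Klrg1 (0.19 ± 0.20) did not pass either.

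Areg, Il10 and Klrg1 were higher in the repeated cells of RARα-TG and lower in those of RARα-KO. Areg was at 630 and 974 CPM in WT, 257 and 510 CPM in RARα-KO and 1557 and 590 CPM in RARα-TG, with 31.8% of the RARα-TG repeated UMIs in clonotype 27 (-0.05 ± 0.29, edgeR adjusted p = 0.974). Il10, an inhibitory cytokine, was at 16.1 and 12.3, 29.9 and 102, and 126 and 28.2 CPM (0.20 ± 0.50). Klrg1 was at 281 and 257, 180 and 266, and 735 and 392 CPM. A difference between the tumors was not tested, since each is 1 sample.

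Gene lists were read by how many members passed. Of 17 tested helper and Th1 genes, 5 rose (Nkg7, Cxcr6, Csf2, Il12rb2, Id2) and 0 fell, with a median of 0.39 and 14 above 0. Of 9 cytotoxic genes, 5 rose (Klrd1, Klrc1, Prf1, Gzme, Gzmc), with a median of 1.53 and 8 above 0. Of 7 inhibitory receptors, Pdcd1 and Lag3 rose. The 14 resting and memory genes had a median log2 fold change of -0.35, with 2 above 0. Of 14 proliferation genes, Hmgb2 and Top2a fell, with a median of -0.66 and 0 above 0, and of 10 interferon genes, Irf7 and Ifi27l2a fell, with a median of -0.46. These calls are from edgeR. In DESeq2, Nkg7 and Id2 of the helper list, Klrd1 of the cytotoxic list, and Pdcd1 and Lag3 passed. Of the resting, proliferation and interferon genes 0 passed in DESeq2, with 5, 3 and 4 at an unadjusted p under 0.05. In the follicular helper (3 tested), antigen receptor response (10), type 17 (2) and heat shock lists (11), 0 passed in edgeR and 0 in DESeq2. Their medians were -0.62, -0.18, 0.07 and -0.05, and 1, 3, 0 and 2 of their genes had an unadjusted p under 0.05 in edgeR. The 0.733% of all genes that rose and 0.456% that fell are the background to these counts.

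The contrast was repeated within Foxp3-zero and within Foxp3-positive cells. In Foxp3-zero cells 57 of 3669 genes passed (1.55%), and Nkg7, Cxcr6, Pdcd1, Lag3, Klrd1, Klrc1, Gzme and Gzmc rose while S1pr1, Klf2 and Tcf7 fell. In Foxp3-positive cells 20 of 4488 genes passed (0.446%). There Nkg7, Lag3 and Gzmb rose and Hmgb2, Top2a and Tubb5 fell, and Foxp3 itself did not pass (adjusted p = 0.981). Top2a was 0.56 higher on the log2 scale in repeated Foxp3-zero cells, without passing (adjusted p = 0.692), and the difference between the cell groups was not tested. Nkg7 and Lag3 rose in repeated cells with and without Foxp3 UMIs.

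Large clonotypes weigh most in these sums. With each clonotype given equal weight, 27 of 5238 genes passed, and 20 of the 73 genes were among them. Nkg7 (0.96, adjusted p = 0.00571), Lag3 (0.97, 0.00743), Gzme (3.65, 7.9e-05) and Tcf7 (-1.46, 0.0396) passed, while Pdcd1 (0.61, 0.124), Cxcr6 (0.80, 0.107), Anxa2 (0.43, 0.105) and Csf2 (0.53, 0.792) did not. Without the genotype block 0 of 6138 genes passed in edgeR, with 440 at an unadjusted p under 0.05. Leaving out WT left 16 calls, leaving out RARα-KO 19, and leaving out RARα-TG gave 155.

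The Foxp3-zero cells of mixed clonotypes were compared with the Foxp3-zero cells of all-zero clonotypes, to see whether they carried other Treg genes. WT had no mixed clonotype, so the test held 4 sums, with 4 and 85 cells in RARα-KO and 12 and 19 cells in RARα-TG, and 1 residual degree of freedom, so that its spread comes mostly from the pool of all genes. Of 1390 genes tested, 49 passed (3.53%), 27 higher (1.94%) and 22 lower (1.58%) in the cells of mixed clonotypes. Ikzf2 was at 553 CPM in the 4 RARα-KO cells and 24.98 CPM in all-zero clonotypes, and at 243 and 88.9 CPM in RARα-TG (3.14 ± 0.55, edgeR adjusted p = 6.3e-06). Klrg1 was at 207 and 34.6 CPM in RARα-KO and at 973 and 144 CPM in RARα-TG (2.62 ± 0.50, edgeR adjusted p = 4.3e-05). Both were higher in the Foxp3-zero cells of mixed clonotypes in both tumors.

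Gzmb, Areg and Ctla4 were higher as well. Gzmb was at 1624 and 670.5 CPM in RARα-KO and at 4013 and 767 CPM in RARα-TG (1.78 ± 0.37, edgeR adjusted p = 0.000232), where the Foxp3-positive partners had 6560 CPM. Areg was at 1452 and 106 CPM and at 2447 and 1111 CPM (2.29 ± 0.39, edgeR adjusted p = 3.9e-06). Ctla4 was at 1210 and 473 CPM and at 2265 and 567 CPM (1.62 ± 0.37, edgeR adjusted p = 0.00133), beside 2414 CPM in the RARα-TG partners. Il2ra (1.004 ± 0.44, adjusted p = 0.272), Tnfrsf4 (0.83 ± 0.36), Tnfrsf9 (0.84 ± 0.35), Tnfrsf18 (0.30 ± 0.38) and Ccr8 (0.53 ± 0.43) did not pass. Of 14 Treg genes tested, 5 rose. Cd81, a tetraspanin, rose by 4.06 ± 0.85.

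Helper and effector genes were among those that fell in these cells. Ms4a4b, a membrane protein of resting and Th1 cells, was at 207 and 1366 CPM in RARα-KO and at 122 and 445 CPM in RARα-TG (-2.36 ± 0.47, edgeR adjusted p = 7.9e-05). Cxcr6 (-1.40 ± 0.42), Bhlhe40 (-1.70 ± 0.40), a transcription factor of cytokine-producing helper cells, Tnfsf11 (-2.40 ± 0.57), Gzmc (-4.63 ± 0.90), the interferon-induced Ifitm2 (-3.15 ± 0.55), the protease inhibitor Serpinb1a (-3.52 ± 0.69) and Satb1 (-2.33 ± 0.64) fell. Few cells of all-zero clonotypes carried Gzmc: 1 of 19 in RARα-TG, with 18 UMIs, and 10 of 85 in RARα-KO, with 221 UMIs. Of the RARα-KO UMIs of Gzmc, 157 came from 1 cell of clonotype 146. Penk, the enkephalin precursor, fell by 3.32 ± 0.53 on the log2 scale, with 3945 CPM in RARα-TG all-zero clonotypes, where 4 of 19 cells gave all 355 UMIs. The calls depend on few cells: without clonotypes with a CD8 UMI, or with hashtags at 5 times the next, 0 genes passed in edgeR, with 94 and 100 at an unadjusted p under 0.05.

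**Figure D5:**
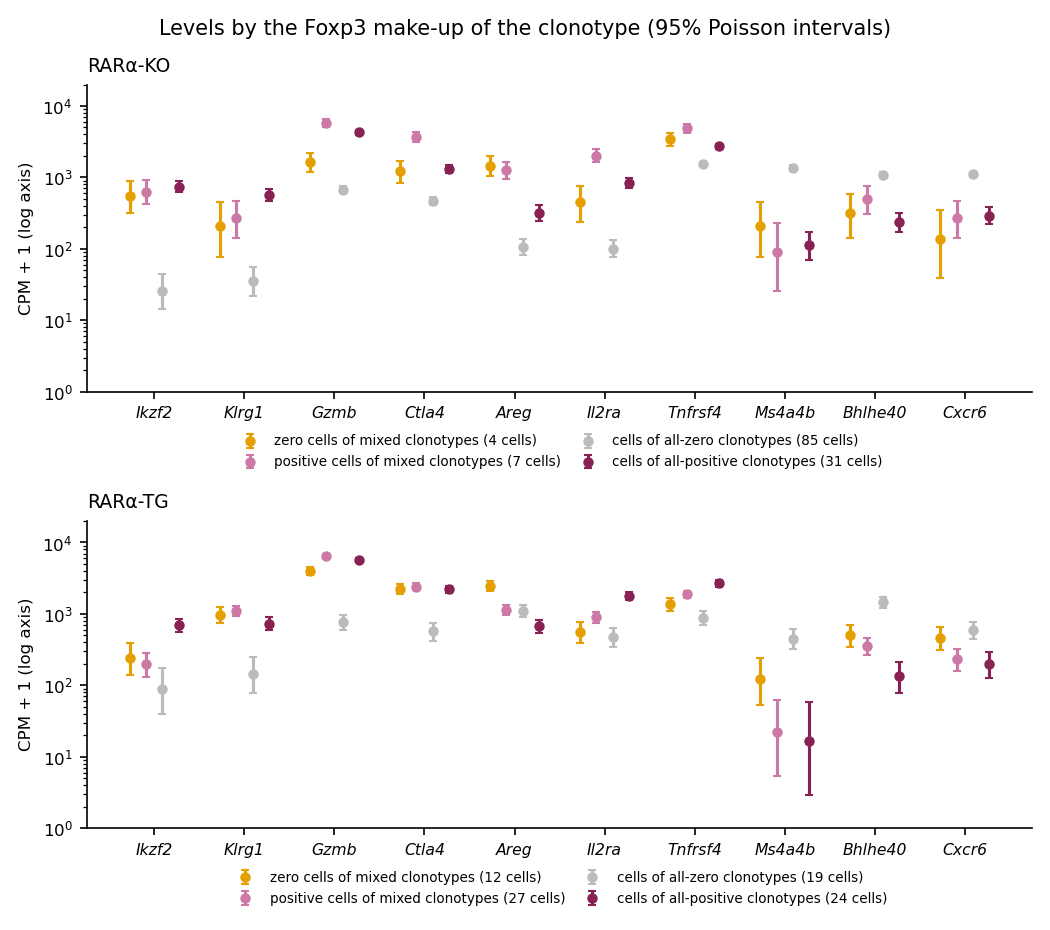
CPM + 1 (log axis) of 10 genes in RARα-KO (top) and RARα-TG (bottom), in Foxp3-zero and Foxp3-positive cells of mixed clonotypes and in cells of all-zero and all-positive clonotypes, with 95% Poisson intervals. In RARα-TG the Foxp3-zero cells of mixed clonotypes lie near their positive partners in Klrg1 and Ctla4 (973 and 1112 CPM, 2265 and 2414 CPM) and far above all-zero clonotypes.

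Repeated and single clonotypes were compared by their receptor chains and segments. An alpha and a beta chain were found in 123 of 124 repeated clonotypes (99.2%, 95.6% to 99.98%) and in 283 of 355 single ones (79.7%, 75.2% to 83.8%). Of the 72 single clonotypes with 1 chain, 20 shared that chain with another clonotype of their tumor, and whether those cells belong to that clonotype was not tested. A second alpha chain was present in 14.5% of repeated (8.84% to 22.0%) and 9.01% of single clonotypes (6.25% to 12.5%), and the beta CDR3 had a median of 14 residues in both. TRBV3, the most used beta segment, was in 17.1% and 16.5%. TRAV7D-2 was in 12.9% of repeated (16 of 124, 7.56% to 20.1%) and 4.73% of single clonotypes (15 of 317, 2.67% to 7.68%), with 20.0% and 3.92% in WT, 10.9% and 10.0% in RARα-KO and 9.30% and 1.60% in RARα-TG.

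Receptors close to those of some of the largest clonotypes, 24 and 27 among them, also occurred in other tumors. By the measure below, clonotype 37 was close only to clonotype 852 of its own tumor, and clonotypes 29 and 41 to none. The measure was set after the receptors had been seen and carries no test. Of 294 pairs of clonotypes with the same beta V and J segments and CDR3 length, which differed at a median of 7 beta bases, 58 differed at 3 or fewer, and 31 of these also had alpha chains with the same J segment and length that differed at 4 or fewer bases. They formed 17 groups with 41 of 403 clonotypes, and 20 of the 31 pairs lay in different tumors. The share over all pairs was not counted, so the 20 do not show that close receptors favored different tumors. In 9 pairs the beta CDR3 was the same after translation, and in 19 it differed at 1 residue. Repeated clonotypes were in a group in 13.8% (17 of 123, 8.26% to 21.2%) and single ones in 8.57% (24 of 280, 5.57% to 12.5%).

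Clonotypes 27, 62 and 75, printed at the start, were 1 such group across the 3 tumors, with beta chains that differed at 2 or 3 bases from clonotype 27, together with single clonotype 1041 of RARα-TG. Clonotype 27 of RARα-TG had 7 Foxp3-positive cells of 12, while clonotype 62 of WT had 0 of 8, clonotype 75 of RARα-KO 0 of 6 and clonotype 1041 0 of 1. The group of clonotype 24 is shown because it too spans the tumors, with capitals at bases that differ from clonotype 24, which had 14 Foxp3-positive cells of 17, while each of the others had 1 CD4 T cell and no Foxp3 UMI.
Clonotype 684 (WT, TRBV20, TRBJ2-4), beta: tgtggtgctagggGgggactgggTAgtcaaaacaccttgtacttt
Clonotype 696 (RARα-KO, TRBV20, TRBJ2-4), beta: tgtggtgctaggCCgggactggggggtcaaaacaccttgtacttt
Clonotype 235 (RARα-KO, TRBV20, TRBJ2-4), beta: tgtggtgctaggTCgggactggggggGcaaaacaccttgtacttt
Clonotype 684 (WT, TRAV6N-7, TRAJ34), alpha: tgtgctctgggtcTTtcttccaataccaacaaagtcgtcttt
Clonotype 696 (RARα-KO, TRAV6N-7, TRAJ34), alpha: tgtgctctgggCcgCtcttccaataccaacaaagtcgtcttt
Clonotype 235 (RARα-KO, TRAV6N-7, TRAJ34), alpha: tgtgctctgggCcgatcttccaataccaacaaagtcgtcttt

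Across the 17 groups, the CD4 T cells were all Foxp3-zero in 5, all Foxp3-positive in 6 and of both kinds in 6. Clonotypes 258 (RARα-TG) and 259 (WT), with 2 CD4 T cells each and none with a Foxp3 UMI, had the same beta CDR3 in bases and alpha chains that differed at 2 bases.
Clonotypes 258 and 259 (TRBV3, TRBJ2-5), beta: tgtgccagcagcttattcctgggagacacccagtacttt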

How the data were processed

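The 3 genotypes shared 1 library, mapped to mm10 (GRCm38) by the authors with Cell Ranger (6.1.0 per the labels, 4 per the header of the matrix). The authors deposited UMI counts per gene, hashtag and barcode, not normalized, and a table of TCR contigs with read and UMI counts. Members and gene lists were chosen with earlier results of these data known. No doublet caller was run and no filter on mitochondrial RNA was set. Of cells with a receptor and genotype, 17 WT, 21 RARα-KO and 22 RARα-TG cells had both Cd4 and CD8 UMIs and stayed out. CPM are summed UMIs over all gene UMIs of the same cells. Sums were tested with edgeR 4.0.16 in R 4.3.3 (glmQLFit, TMM, filterByExpr, genotype as block, Benjamini-Hochberg at 0.05), or with DESeq2 1.42.0 as an alternative. Intervals are Clopper-Pearson for shares, Poisson for CPM and Newcombe for differences of shares (scipy 1.17.1, statsmodels 0.14.6). Thinning drew 1000 UMIs per cell with a fixed seed. Named genes were the 12 with the lowest p in each direction with the same sign in all tumors, markers of Treg, helper and resting cells, and list members that passed; for Foxp3-zero cells, the 5 with the lowest p in each direction, Treg markers and list members that passed. The values of 1 gene of that rule are not reported here. Tested on simulated counts of 6138 genes, the repeated and single contrast called 101 of 101 genes changed 4-fold, 72 of 99 changed 2-fold and 7 of 5938 unchanged. For the 1390 genes of the Foxp3-zero contrast these were 63 of 100, 8 of 100 and 1 of 1190. The simulation gave all genes of a contrast 1 common dispersion and no clonotypes. Its rates need not hold for genes whose UMIs came from few clonotypes or cells.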

Additional observations from a re-analysis of the deposited data

Results flagged for a closer look

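Several differences between repeated and single cells pointed in opposite directions in different tumors. With 1 sample per genotype, none of these differences between tumors was tested. The Foxp3 share differed by 19.3 percentage points in RARα-TG and was lower in repeated cells of WT and RARα-KO, but with each clonotype weighted equally it was higher in repeated clonotypes of all 3. The log2 ratio of repeated over single CPM of Ctla4 was 0.72 in RARα-TG and -0.43 in WT, and that of Klrg1 was 0.90 in RARα-TG and -0.57 in RARα-KO. Il10 stood at 2.16 in RARα-TG and -1.76 in RARα-KO. Areg was at 1.40 in RARα-TG, -0.63 in WT and -0.99 in RARα-KO, and Klf2 at 1.004, -0.80 and -0.74, where clonotype 101 gave 82.3% of the RARα-TG repeated UMIs of Klf2. Ifng was at 5.98 in WT and -3.72 in RARα-TG. Ccl5 was at 0.63 (WT), 1.53 (RARα-KO) and -0.41 (RARα-TG), and clonotype 37 gave 58.8% of the RARα-KO repeated UMIs.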

How the results depend on the processing

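The count of genes that passed between repeated and single cells was 73 and moved by over 1.5 times under these settings: hashtags at 5 times the next (35), 2 or more Cd4 UMIs (40), clonotypes with both chains (39), 1000 UMIs per cell (13 of 1872 genes, 11 higher and 2 lower), each clonotype as 1 unit (27), Foxp3-positive cells (20), DESeq2 (8 higher and 0 lower, with 4403 adjusted p-values not given), no filter (196) and no genotype block (0 in edgeR, 440 at an unadjusted p under 0.05). Leaving out 1 tumor gave 16 to 155. The other 10 settings gave 50 to 92. All of the 73 genes that could be tested kept their direction, except Top2a in Foxp3-zero cells (0.56). For 56 named genes, 895 of 1165 values kept direction and call, 63 changed sign with no call in either fit, 184 lost and 22 gained the call. In the Foxp3-zero contrast the 49 calls became 0 with hashtags at 5 times the next, without clonotypes with a CD8 UMI and with size 3 or more (100, 94 and 57 at an unadjusted p under 0.05), 4 with 2 or more Cd4 UMIs, 5 without the deepest 5% of cells, 7 against all other Foxp3-zero cells, 1 in DESeq2 and 21 with no filter. Without RARα-KO or RARα-TG it had no residual degree of freedom. The repeated share was 50.5% (WT), 65.4% (RARα-KO) and 48.5% (RARα-TG) with 2 or more Cd4 UMIs, 30.9% in WT and 31.9% in RARα-TG with size 3 or more, 48.6% in RARα-TG with both chains, 33.5% in RARα-TG counting CD4 T cells alone, and 32.4% in WT and 48.3% in RARα-KO drawn down. The Foxp3 difference was 5.75 points in RARα-TG counting CD4 T cells alone, 3.67 thinned and 5.23 with 2 or more Foxp3 UMIs, and, with clonotypes weighted equally, 4.82 (WT), 4.57 (RARα-KO) and 28.9 points (RARα-TG), which turned the direction in WT and RARα-KO. The mixed share was 43.5% in WT and 31.3% in RARα-KO thinned, and 34.8% in WT and 31.3% in RARα-KO with 2 or more Foxp3 UMIs, a setting chosen after seeing the data, like leaving out the largest or the shared clonotypes. The causes were not tested. The sums were paired by tumor (the genotype block). By replicate number no paired analysis was possible because the genotypes carry none.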
